A study of Mus musculus with 6 samples.

Results

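The unfolded protein response was followed through 10 genes in mouse white adipose tissue: Hspa5, Hyou1, Pdia4, Sdf2l1 and Dnajb9 (chaperones and folding enzymes of the endoplasmic reticulum, ER), Herpud1 (ER-associated degradation), Xbp1, Atf4, Ddit3 and Trib3. They form a list of known response genes, chosen by name with earlier results of these data known. Matched by symbol to Ensembl identifiers, all 10 were found among the 22040 genes of the deposited table. RNA sequencing covered 3 control samples, from mice given saline intraperitoneally, and 3 samples from mice given ginsenoside Rb1, a saponin of ginseng, intraperitoneally at 14 mg/kg per day. The sources used here give no fat depot, strain, age, diet or treatment time, and they do not tie each sample to a mouse of its own. The p-values then cover sample-to-sample spread only, part of which may be technical.

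The unfolded protein response adjusts the folding capacity of the ER to its load of new secretory and membrane proteins. Its sensors are IRE1, PERK and ATF6. IRE1 splices Xbp1 mRNA so that it encodes an active transcription factor, PERK phosphorylates the initiation factor eIF2alpha and so favours translation of Atf4 mRNA, and cleaved ATF6 enters the nucleus. XBP1 and ATF6 drive chaperone and degradation genes, while ATF4 drives Ddit3 (CHOP), Trib3 and amino acid metabolism. In obese fat the response is a long-studied link between nutrient load, inflammation and insulin resistance. Counts per gene read total mRNA only: they separate neither spliced from unspliced Xbp1 nor ATF4 protein from its message.

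A stretch before the start of 5 of the genes is shown, with or without matches to elements through which the stress factors act. Each line gives the 130 bases before the RefSeq transcription start on GRCm38.p6, with capitals marking the stress elements defined in the next paragraph where they lie wholly before the start. CCAAT boxes outside them, and a Herpud1 match that runs across the start, are in lower case. Hspa5 is at chr2:34771960-34772089 on the plus strand, Herpud1 at chr8:94386299-94386428 on the plus strand, Pdia4 at chr6:47813513-47813642 on the minus strand, Ddit3 at chr10:127290663-127290792 on the plus strand and Xbp1 at chr11:5520511-5520640 on the plus strand.
Hspa5: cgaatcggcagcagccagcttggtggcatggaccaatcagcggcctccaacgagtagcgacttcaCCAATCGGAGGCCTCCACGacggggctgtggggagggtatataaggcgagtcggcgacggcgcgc
Herpud1: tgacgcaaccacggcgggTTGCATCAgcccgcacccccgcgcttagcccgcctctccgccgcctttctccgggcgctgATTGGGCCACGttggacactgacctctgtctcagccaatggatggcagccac
Pdia4: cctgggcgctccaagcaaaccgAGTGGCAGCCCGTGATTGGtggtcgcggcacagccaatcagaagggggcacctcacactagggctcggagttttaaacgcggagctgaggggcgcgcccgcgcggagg
Ddit3: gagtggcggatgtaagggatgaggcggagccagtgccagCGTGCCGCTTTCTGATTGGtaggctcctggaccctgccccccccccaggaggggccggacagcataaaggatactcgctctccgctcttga
Xbp1: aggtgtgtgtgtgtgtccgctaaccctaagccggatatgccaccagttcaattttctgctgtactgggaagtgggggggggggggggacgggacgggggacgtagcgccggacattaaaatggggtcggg

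The elements were searched on both strands of windows that ran from 250 bases before to 50 bases after the start, with RefSeq windows for 9 of the 10 members. The ER stress element ERSE (CCAAT, 9 bases of any kind, then CCACG) was found in 1 member, Hspa5, from -65 to -47, and in 0.119% of all 32817 windows. With exactly 1 mismatch in its fixed letters it was found in 3 members, Pdia4, Herpud1 (from -18 to 1, across the start) and Ddit3, and in 1.4% of windows. The short form ERSE-II (ATTGG, 1 base of any kind, then CCACG) was in 1 member, Herpud1, from -52 to -42, and in 0.0366% of windows. The core of the C/EBP-ATF element that ATF4 binds (TGATGNAA) was in 2 members, Herpud1 from -112 to -105 and Trib3 from 15 to 22 after the start, and in 3.97% of windows. The XBP1 element core (TGACGTGG) was in 0 members and 0.676% of windows. ERSE begins with, and ERSE-II includes the reverse of, a CCAAT box (CCAAT), which 7 members and 37.4% of windows carried. These matches describe letters in a window and not sites of binding. Elements outside the window, or with other letters than those searched, would not have been found.

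**Figure D1:**
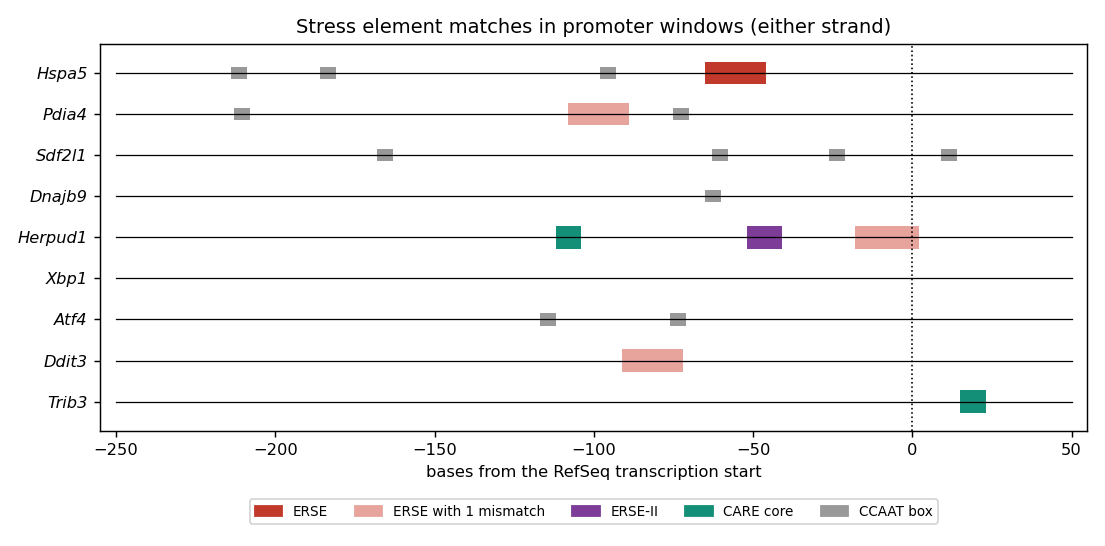
Positions of element matches in the promoter windows of the 9 genes with a RefSeq window; the horizontal axis is the distance in bases from the transcription start (dotted line), coloured blocks are matches on either strand and small grey blocks are CCAAT boxes outside them. Hspa5 holds the only full ERSE and Herpud1 holds both an ERSE-II and a C/EBP-ATF core.

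Libraries held 15440339 to 24501446 counts, and each member had at least 129 counts in every library, so all 10 passed the filter on low counts. Markers of mature fat cells summed to 5742 to 6782 FPKM in controls and 6429 to 7323 FPKM with Rb1 (FPKM, made by the authors, is the count scaled to gene length and to the library total). Over 10 skeletal muscle markers, control replicate 2 summed to 10380 FPKM, the other controls to 142.5 and 152.8 FPKM, and the Rb1 libraries to 15.94 to 57.0 FPKM, and all 10 markers had negative log2 fold changes. The 8 macrophage markers summed to 260.2 to 295.7 FPKM in controls and 138.0 to 189.4 FPKM with Rb1, and all 8 had negative log2 fold changes. In bulk tissue, fewer cells of a type and less RNA per cell cannot be told apart. Plasma cells and pancreatic acinar cells, which run a strong secretory programme, were represented by few markers. Of 8 plasma cell markers, 5 stayed under 1 FPKM in all 6 libraries. Of 9 acinar markers, 8 stayed under 1 FPKM and 6 had 0 counts in all 6. The summed acinar markers lay at 17.37 to 33.8 FPKM in controls and 11.86 to 18.96 FPKM with Rb1. The summed plasma cell markers lay at 10.99 to 12.75 FPKM in controls and 8.731 to 10.68 FPKM with Rb1. The 5 erythroid markers summed to 226.1 to 385.5 FPKM in controls and 387.7 to 615.1 FPKM with Rb1, all 5 with positive log2 fold changes. The part of these cell types in the results below was not tested.

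None of the 10 unfolded protein response genes passed the test between Rb1 and control. The comparison used edgeR's quasi-likelihood test with Benjamini-Hochberg adjustment over 14093 genes and a threshold of 0.05, at which 0.0071% of all genes tested were called. The smallest adjusted p among the members was 0.378, for Ddit3. At an unadjusted p under 0.05 edgeR gave 1 member higher (Hyou1) and 1 lower (Ddit3), against 4.01% of all genes tested higher and 7.54% lower, and DESeq2 called 0 members against 2.77% of genes. The members' median log2 fold change was 0.13, beside 0.01 over all genes tested, and 0.01 without Rb1 replicate 2, the shallowest library. Of the 10 values 8 were positive, beside 7235 of 14093 for all genes. The 95% intervals of the members' fold changes lay between 0.625 and 1.95, each interval taken alone, so a change of 2-fold or more in either direction was outside the interval of each of the 10.

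**Figure D2:**
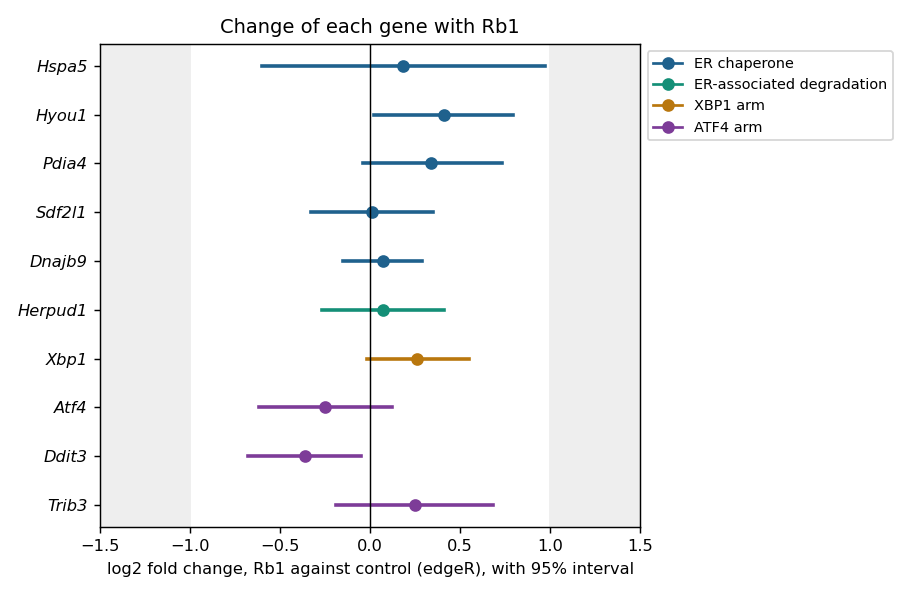
Log2 fold change of each gene with Rb1 against control (points) with its 95% interval from edgeR (lines), coloured by role; the shaded margins are changes of 2-fold or more. The intervals of Hyou1 and Ddit3 leave out 0 before adjustment, and no interval reaches the margins.

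Hspa5 encodes BiP, the ER's main Hsp70 chaperone and the protein that holds the stress sensors inactive, and it was the most variable member. Its level was 47.4, 58.7 and 30.1 FPKM in control replicates 1, 2 and 3, and 59.3, 61.7 and 29.3 FPKM in Rb1 replicates 1, 2 and 3. The third library of each group was the lowest and the groups overlapped almost completely. Within each group the highest library stood at 1.95 times the lowest in controls and 2.11 times with Rb1. The spread within groups, an SD of 0.53 on the log2 scale, was at the 86.9 percentile of all genes tested. The log2 fold change was 0.18 (SE 0.33, 95% interval -0.60 to 0.97, edgeR adjusted p = 0.885), and it was -0.03 without control replicate 3 and -0.03 without Rb1 replicate 2. The promoter with the full ERSE belongs to the gene whose difference between groups was measured least precisely of the 10.

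The partner chaperones were also lowest in replicate 3 within the Rb1 group, but not within the controls. Hyou1, the ER Hsp110 that exchanges nucleotide on BiP, stood at 4.14, 4.83 and 5.04 FPKM in controls and 6.28, 6.98 and 4.89 FPKM with Rb1. Pdia4, a protein disulfide isomerase also called ERp72, stood at 34.1, 42.3 and 48.3 FPKM in controls and 52.4, 54.2 and 47.8 FPKM with Rb1. Both were highest in Rb1 replicate 2 and lowest in control replicate 1, and in controls the third library was the highest, the reverse of Hspa5.

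Hyou1 had the largest positive value of the 10 genes, a log2 fold change of 0.41 (SE 0.16, 95% interval 0.02 to 0.79, edgeR adjusted p = 0.416). It was 0.26 when Rb1 replicate 2 was left out. Pdia4 had a log2 fold change of 0.34 (SE 0.16, 95% interval -0.04 to 0.73, edgeR adjusted p = 0.486), and 0.20 without control replicate 1. On TMM-scaled CPM (counts scaled to library size by edgeR) its groups did not overlap, with a highest control of 135.0 and a lowest Rb1 library of 137.0, while on FPKM they did.

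Sdf2l1 and Dnajb9 were the steadiest members. Sdf2l1, a partner of the ER DnaJ proteins, was at 9.82, 9.87 and 10.3 FPKM in controls and 9.41, 10.7 and 9.25 FPKM with Rb1. Dnajb9, the co-chaperone ERdj4 that represses IRE1, was at 20.2, 20.3 and 21.8 FPKM in controls and 21.4, 20.9 and 21.3 FPKM with Rb1. The 6 libraries of Dnajb9 lay within a ratio of 1.08 of each other, and its spread within groups was at the 9.2 percentile of all genes. The fold change of Dnajb9 was 1.05 (95% interval 0.900 to 1.23, edgeR adjusted p = 0.834) and that of Sdf2l1 was 1.01 (0.797 to 1.27, adjusted p = 0.989). For these 2 genes a change beyond those bounds lies outside the interval, which is not the same as no change.

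Herpud1, a membrane protein of the ER degradation complex, carries both an ERSE-II and an ATF4-type core in the sequence shown above. Its level was 12.6, 14.0 and 15.9 FPKM in controls and 13.7, 15.8 and 13.7 FPKM with Rb1. The groups overlapped, and on FPKM the lowest and the highest library were both controls. On TMM-scaled CPM the highest was Rb1 replicate 2, at 82.43 beside 80.28 in control replicate 3. The log2 fold change was 0.07 (SE 0.14, 95% interval -0.27 to 0.41, edgeR adjusted p = 0.903). It was -0.04 without control replicate 1 and -0.03 without Rb1 replicate 2.

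Xbp1, the transcription factor that IRE1 activates by splicing, was at 27.2, 29.1 and 30.4 FPKM in controls and 34.6, 36.3 and 30.4 FPKM with Rb1. The 3 Rb1 libraries lay above the 3 controls by a narrow margin, with the third library of each group nearly equal. The log2 fold change was 0.26 (SE 0.12, 95% interval -0.02 to 0.55, edgeR adjusted p = 0.464). On TMM-scaled CPM the groups did not overlap for 3 of the 10 members, against 17.5% of all genes tested. Xbp1 and Pdia4 were the 2 in the higher direction, where 7.73% of all genes lay. No element of the search was found in the Xbp1 window.

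**Figure D3:**
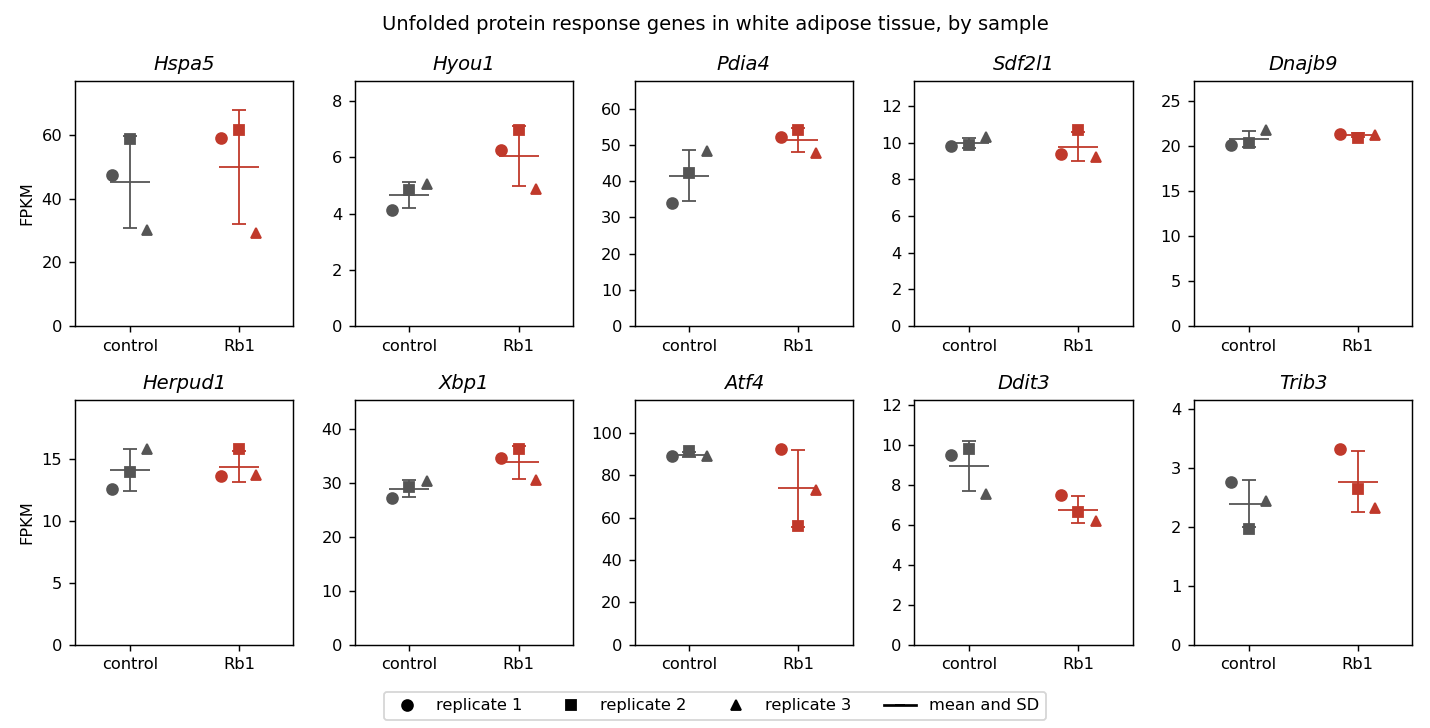
FPKM of each gene (vertical axes, from 0) in the 3 control and 3 Rb1 samples; symbols give the replicate, and bars the mean and SD (n = 3). Hspa5 is the 1 chaperone lowest in the third library of both groups, Dnajb9 hardly varies, and Atf4 is spread within the Rb1 group only.

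The ATF4 arm had no common direction. Atf4 encodes the transcription factor at its head, and its mRNA was the steadiest member in controls, at 89.0, 91.4 and 89.1 FPKM. With Rb1 it stood at 92.7, 56.2 and 72.9 FPKM. On FPKM, Rb1 replicate 1 exceeded every control and Rb1 replicate 2 was far below them. The log2 fold change was -0.25 (SE 0.16, 95% interval -0.62 to 0.12, edgeR adjusted p = 0.611). Leaving out Rb1 replicate 2 gave -0.11, and leaving out Rb1 replicate 1 gave -0.39.

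Ddit3 encodes CHOP, the factor linked to cell death under prolonged ER stress, and was lower with Rb1 without passing the test. It was at 9.48, 9.82 and 7.52 FPKM in controls and 7.48, 6.61 and 6.17 FPKM with Rb1. As for Hspa5, the third library was the lowest of each group. Every Rb1 library lay below every control, by a narrow margin, and Ddit3 was the 1 member of 10 whose groups did not overlap in the lower direction, where 9.74% of all genes did so. The log2 fold change was -0.36 (SE 0.13, 95% interval -0.68 to -0.05, edgeR adjusted p = 0.378), and -0.28 without control replicate 2. Exons of Ddit3 overlap Mars, a tRNA synthetase gene on the opposite strand, and no source used here gives the strand setting of the counting, so their reads cannot be told apart there. Mars, also an ATF4 target, was at 8.13 ± 0.618 FPKM in controls and 9.16 ± 0.442 FPKM with Rb1 (SD, n = 3 each), the direction opposite to Ddit3. The macrophage markers were lower in the same libraries, and their part in the value of Ddit3 was not tested.

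Trib3, a pseudokinase induced by ATF4 and CHOP that dampens AKT signalling, was the least abundant member, with 129 to 213 counts per library. It stood at 2.76, 1.96 and 2.44 FPKM in controls and 3.32, 2.64 and 2.32 FPKM with Rb1, with overlapping groups. The log2 fold change was 0.25 (SE 0.18, 95% interval -0.19 to 0.68, edgeR adjusted p = 0.667), and 0.13 without control replicate 2. Ddit3 and Trib3 had values of opposite sign. The difference between them was not tested.

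**Figure D4:**
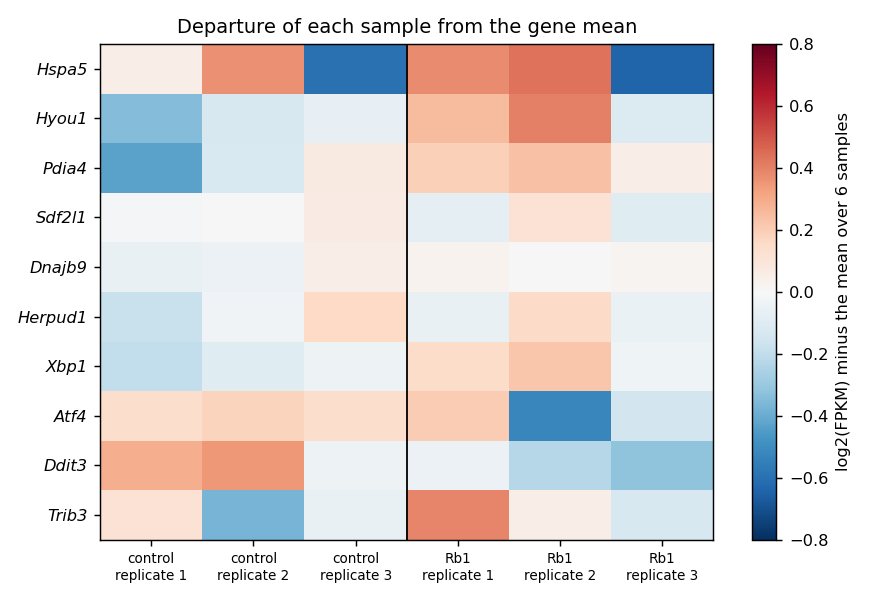
Log2 FPKM of each gene (rows) in each sample (columns) after subtracting the gene's mean over the 6 samples; red is above and blue below that mean. Within each group, Hspa5 and Ddit3 are lowest in the third library. In Rb1 replicate 2 Atf4 is at its lowest while Hspa5, Hyou1, Pdia4, Sdf2l1 and Xbp1 are at their highest.

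A few libraries held the extremes of most of the 10 genes. Rb1 replicate 2 had the highest FPKM of all 6 samples for 5 members, namely Hspa5, Hyou1, Pdia4, Sdf2l1 and Xbp1, and the lowest for Atf4. Control replicate 1 had the lowest FPKM for 5 members, namely Hyou1, Pdia4, Dnajb9, Herpud1 and Xbp1. Hspa5, Sdf2l1 and Ddit3 were lowest on FPKM in Rb1 replicate 3. The tally depends on the scaling. On TMM-scaled CPM Herpud1 was also highest in Rb1 replicate 2 (82.43), and Sdf2l1 was lowest in Rb1 replicate 1 (9.994). On that scale Atf4 was highest in control replicate 2 (156.9) and Dnajb9 in Rb1 replicate 3 (63.18). On FPKM these 2 were highest in Rb1 replicate 1 and control replicate 3. The total count was 15440339 in Rb1 replicate 2, the smallest of the 6, and 19125095 in control replicate 1. Whether depth contributed to these values was not tested.

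In order of mean FPKM over the 6 samples the members ran from Atf4 (81.9) through Hspa5 (47.7), Pdia4 (46.5), Xbp1 (31.3), Dnajb9 (21.0), Herpud1 (14.3), Sdf2l1 (9.90), Ddit3 (7.85) and Hyou1 (5.36) to Trib3 (2.57). The ranges over samples overlapped between neighbours for Atf4 and Hspa5, Hspa5 and Pdia4, Pdia4 and Xbp1, Sdf2l1 and Ddit3, and Ddit3 and Hyou1. This order depends on the gene lengths behind the deposited FPKM. The length implied for Hyou1 was 12058 bases, 1.67 times its exon positions in GENCODE M21, and for Herpud1 it was 4974 bases, 2.13 times, whereas for Sdf2l1 both were 1108 bases. Counts per kilobase of the longest annotated transcript, scaled to the library total, put Hspa5 first (90.4), then Atf4 (69.9) and Xbp1 (66.3), and moved Herpud1 (36.4) above Dnajb9 (24.2). Comparisons of 1 gene between samples do not depend on that length.

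The other genes of the pathway were described from lists. In all, 98 further genes on 7 lists were tested and 0 passed in edgeR, against 0.0071% of all genes, while DESeq2 called 1 of them, Atf3, against 2.77% of all genes. At an unadjusted p under 0.05 edgeR gave 2 of the 98 higher and 6 lower, against 4.01% and 7.54% of all genes. Of the 10 sensors and feedback regulators, 7 had positive log2 fold changes. Atf6, Eif2ak3 (PERK) and Ern1 (IRE1) were at 0.02, 0.02 and -0.04. Over these 10 regulators the median was 0.03, up to 0.07 with 1 library left out and -0.02 with scaling to library totals. Under that scaling the median of all genes tested was -0.035, beside 0.007 with TMM. Those with the smallest p were Nfe2l1, an ER-anchored transcription factor of proteasome genes (-0.30), Atf6b, the ATF6 paralog (0.19), and Mbtps1, the protease that cleaves ATF6 (0.22), with edgeR adjusted p of at least 0.513. Mbtps1 was at 0.10 without control replicate 2 and 0.13 without Rb1 replicate 2.

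Among 21 other ER chaperones and folding enzymes 16 were positive, with a median log2 fold change of 0.10. That median was 0.05 without control replicate 1, 0.05 without Rb1 replicate 2 and 0.17 without control replicate 3. Manf, a secreted ER stress protein, averaged 5.71 ± 0.257 FPKM in controls and 7.80 ± 0.895 FPKM with Rb1 (SD, n = 3 each). Its log2 fold change was 0.49 (SE 0.14, edgeR adjusted p = 0.269, DESeq2 adjusted p = 0.0854). Its 3 Rb1 libraries, at 7.20, 7.38 and 8.83 FPKM, were above the controls at 5.50, 5.64 and 6.0 FPKM, and the highest was the library in which Hspa5 was lowest. On TMM-scaled CPM, Dnajb11 (-0.18), a BiP co-chaperone, and Sdf2 (-0.22), the paralog of Sdf2l1, were lower in every Rb1 library than in every control. Their edgeR adjusted p were 0.442 and 0.482. Of the 21 genes, 3 lay lower without overlap and 1 higher, beside 9.74% and 7.73% of all genes tested.

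Of 16 degradation genes 10 were positive, with a median log2 fold change of 0.07, and 0.04 without control replicate 2. Derl1, a channel protein of the degradation complex, averaged 36.7 ± 2.07 FPKM in controls and 45.3 ± 4.28 FPKM with Rb1 (SD, n = 3 each), with a value of 0.34 (edgeR adjusted p = 0.318). Erlec1, an ER lectin, was on the lower side (-0.24, adjusted p = 0.370 in edgeR), and Derl3 (0.81), mostly a gene of secretory cells, was close to absent at 0.101 and 0.176 FPKM. The 15 translocation and signal peptide genes had a median of -0.03 with 7 positive, and 0.08 without control replicate 2, the library richest in muscle transcripts. Spcs3 (-0.17), a signal peptidase subunit, Ssr1 (0.22), a translocon-associated protein, and Srp54a (-0.29), of the signal recognition particle, had the smallest p of that list, with edgeR adjusted p of at least 0.476.

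Targets of ATF4 other than the members had a median log2 fold change of -0.22 over 21 genes, 12 of them negative. At an unadjusted p under 0.05 edgeR gave 5 lower and 0 higher, beside 7.54% of all genes lower. The 3 with the smallest p were Atf3 (-1.45, edgeR adjusted p = 0.0744), a stress-induced repressor that many stimuli besides ATF4 drive, Cebpb (-0.46), a C/EBP factor of fat cells and macrophages, and Mthfd2 (-0.49), a mitochondrial folate enzyme. Atf3 averaged 13.3 ± 1.83 FPKM in controls and 4.74 ± 0.725 FPKM with Rb1 (SD, n = 3 each), with a DESeq2 adjusted p of 1.47e-13. Cebpb averaged 25.7 ± 1.51 FPKM in controls and 18.2 ± 1.10 FPKM with Rb1 (SD, n = 3 each), and its adjusted p was 0.269 in edgeR and 0.0872 in DESeq2. Asns, a classical amino acid response gene, had a value of 0.37 and Chac1, a glutathione-degrading target of the same arm, -0.22, with edgeR adjusted p of 0.525 and 0.849. The list's median was -0.03 without control replicate 3, -0.04 without Rb1 replicate 1 and -0.05 without control replicate 2. The summed macrophage markers were lower with Rb1 in every library, and their part in the values of this list was not tested.

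The 12 aminoacyl-tRNA synthetases that ATF4 can induce had a median of 0.06, with 10 positive. Gars (0.20), Wars (0.23) and Mars (0.21) had the smallest p, with edgeR adjusted p of 0.450 to 0.557. The 4 eIF2alpha kinases had a median log2 fold change of -0.09. Eif2ak2 (-0.11), the double-stranded RNA kinase PKR, Eif2ak4 (-0.15), the amino acid sensor GCN2, and Eif2ak1 (-0.08), the haem-regulated kinase, had edgeR adjusted p of at least 0.672.

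**Figure D5:**
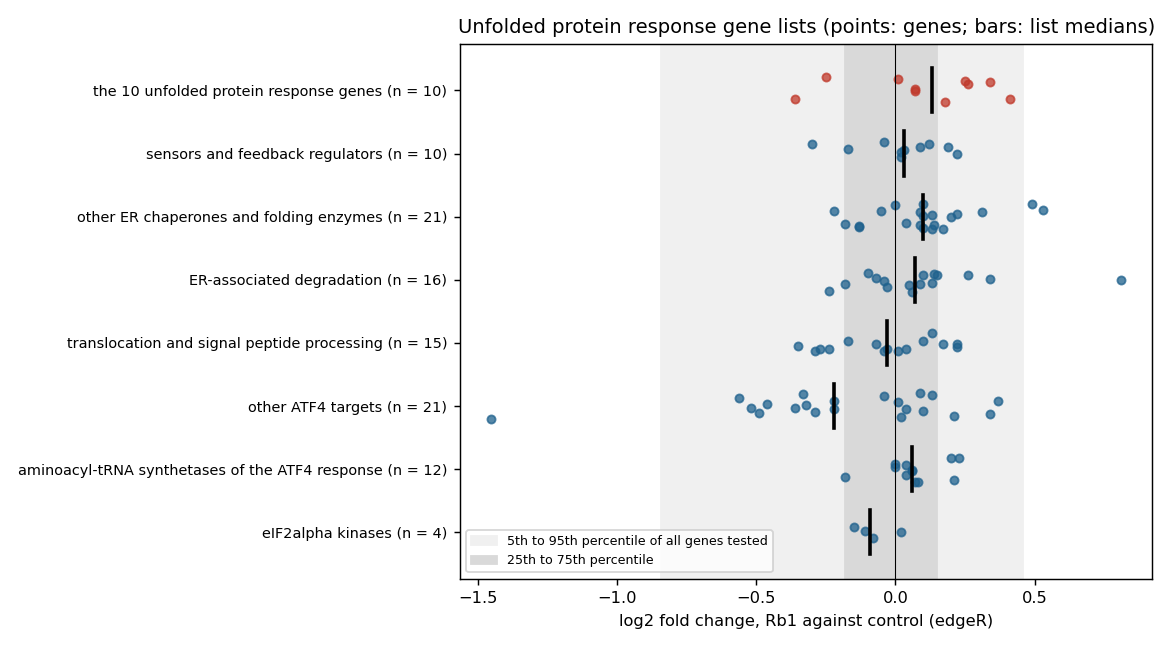
Log2 fold change with Rb1 against control for the genes of each list (points, scattered vertically for legibility) with list medians (black bars); the shaded bands span the 5th to 95th and the 25th to 75th percentiles of all 14093 genes tested. Medians lie between -0.22 for the other ATF4 targets and 0.13 for the 10 unfolded protein response genes, and Atf3 (-1.45) is the 1 point far to the left.

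On GRCm38, Hspa5 (ENSMUSG00000026864) lies on chromosome 2 from 34771970 to 34777547, Hyou1 (ENSMUSG00000032115) on chromosome 9 from 44379490 to 44392369, and Pdia4 (ENSMUSG00000025823) on chromosome 6 from 47796141 to 47813430. Sdf2l1 (ENSMUSG00000022769) lies on chromosome 16 from 17130138 to 17132383, Dnajb9 (ENSMUSG00000014905) on chromosome 12 from 44205559 to 44210326, and Herpud1 (ENSMUSG00000031770) on chromosome 8 from 94386438 to 94395377. Xbp1 (ENSMUSG00000020484) lies on chromosome 11 from 5520659 to 5525893 and Atf4 (ENSMUSG00000042406) on chromosome 15 from 80255184 to 80257541. Ddit3 (ENSMUSG00000025408) lies on chromosome 10 from 127290774 to 127296288 and Trib3 (ENSMUSG00000032715) on chromosome 2 from 152337422 to 152344032. All are protein-coding, and besides Ddit3, which overlaps Mars and 2 further annotated entries, exons of Dnajb9 and Pdia4 hold a miRNA gene each.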

How the data were processed

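Total RNA of 6 white adipose samples was sequenced. Per the submitters' processing notes, the tools were CASAVA 1.8 and TopHat2 2.0.6 with build mm10. For the counting tool, annotation release and strand setting, the sources used here give nothing. Per the file headers, the deposited values are raw counts for each Ensembl gene, and FPKM that the authors computed. Over 13169 genes the FPKM equalled the count divided by column total and 1 length per gene, to within 0.00984%.

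Counts were tested with edgeR 4.0.16 in R 4.3.3 (TMM scaling, default filter with a minimum count of 10 and total of 15, quasi-likelihood test, all 6 samples, no covariates). Standard errors and 95% intervals come from its F statistic. FPKM, which carries no TMM scaling, entered no test. It gave levels, marker sums and the comparisons of single libraries printed in FPKM. DESeq2 1.42.0, RLE scaling, library-total scaling, no filter, a replicate block and each library left out were the alternatives. The code was tested on simulated counts. No 2 libraries agreed within sampling noise (chi-square per degree of freedom at least 30.38).

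Members and lists were chosen with earlier results of these data known, so no list was tested. Named beside the members are up to 3 genes per list with the smallest p, and, chosen after their values were seen, Atf6, Eif2ak3, Ern1, Asns and Chac1. Symbols and coordinates are from GENCODE M21 (21933 of 22040 identifiers paired), promoters from RefSeq on GRCm38.p6. Of the other genes named, Manf, Sdf2, Spcs3, Cebpb, Mars, Eif2ak1, Eif2ak2 and Eif2ak3 share exon positions with another gene, so their counts are uncertain to that extent. Mouse Atf4 and other genes with processed copies may also have lost or gained reads.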

Additional observations from a re-analysis of the deposited data

How the results depend on the processing

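Across 11 alternatives the number of unfolded protein response genes past the threshold stayed at 0 of 10, in DESeq2 as in edgeR. Their median log2 fold change was 0.09 to 0.13 under the other tools, scalings, filter and block, and 0.01 to 0.20 when 1 library was left out, lowest without Rb1 replicate 2. Of 110 recomputed member values 103 kept their sign. Leaving out 1 library moved Hspa5 between -0.03 and 0.44, Sdf2l1 between -0.09 and 0.08 and Herpud1 between -0.04 and 0.18, and scaling to library totals put Sdf2l1 at -0.03. That scaling put the median of all genes tested at -0.035, from 0.007 with TMM. Over all genes, edgeR called 1 and DESeq2 390, and leaving out 1 library gave 1 to 4, with 3, 4 and 2 without Rb1 replicates 1, 2 and 3. Atf3 passed in DESeq2 (log2 fold change -1.44, DESeq2 adjusted p = 1.47e-13) and not in edgeR. Its edgeR value stayed between -1.54 and -1.39 when 1 library was left out. The replicate block left 1 gene called in all and 0 of the members, with a median of 0.12. Deviations from the group means correlated at 0.136, -0.109 and 0.018 between same-numbered samples. Between differently numbered samples the correlations ran from -0.265 to 0.262. Deviations of only 3 samples a group cannot decide whether the numbers mark pairs. With 3 samples a group, both the spread between libraries and, for members of few counts such as Trib3 and Sdf2l1, the counting error enter the intervals.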
